A study of Mus musculus with 25 samples.

Results

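The NR4A family of orphan nuclear receptors has 3 members in the mouse, *Nr4a1*, *Nr4a2* and *Nr4a3*, and all 3 were found by symbol among the 52636 genes of the *soleus* count table. All 3 also passed the filter on low counts, which left 16340 genes for testing. RNA was sequenced from the *soleus* of 25 mice, 1 library per mouse, killed at rest or when 60 minutes had passed since a treadmill bout of 30 minutes. Every mouse was 12 weeks old, on a C57BL/6 background, and carried Dnmt3a flox/flox alleles with an exon between the LoxP sites. WT mice carried no Cre, and mD3AKO mice (labelled KO) carried in addition the mCK-Cre transgene, in which the muscle creatine kinase promoter, active in differentiated muscle, drives Cre recombinase. There were 5 WT mice at rest (3 males and 2 females), 7 WT mice after exercise (3 males and 4 females), 7 mD3AKO mice at rest (4 males and 3 females) and 6 mD3AKO mice after exercise (3 males and 3 females). Rested mice spent 30 minutes on a sham treadmill arena instead. Per the study's methods, mice had first been accustomed to the treadmill by short runs on 3 consecutive days. The comparisons ask how the family responds to a single bout of exercise in the *soleus*, and whether loss of the DNA methyltransferase DNMT3A alters that response.

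NR4A proteins bind DNA as monomers at the NGFI-B response element (NBRE) and as homodimers or heterodimers at related sites. Their ligand-binding pocket is filled by bulky side chains, so that their activity is thought to follow their abundance more than a ligand. *Nr4a1* (Nur77), *Nr4a2* (Nurr1) and *Nr4a3* (Nor-1) are immediate early genes, transcribed within minutes of a rise in cAMP or calcium, and in skeletal muscle they are induced by beta-adrenergic signaling and by contraction. CREB, bound at the cAMP response element (CRE), and MEF2 factors are known regulators of the family.

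*Nr4a1* (ENSMUSG00000023034) lies on chromosome 15 of mm10, at chr15:101266846-101274792 on the plus strand, with 2474 exonic bases. *Nr4a2* (ENSMUSG00000026826) lies at chr2:57106830-57124003 on the minus strand, with 4059 exonic bases. *Nr4a3* (ENSMUSG00000028341) lies at chr4:48045153-48086447 on the plus strand, with 5987 exonic bases. None of the 3 overlapped another annotated gene. Of the 31-base words of their transcripts, 0% of *Nr4a1*, 0.268% of *Nr4a2* and 0.468% of *Nr4a3* also occurred in transcripts of other genes, and none were shared between members, so that few reads could be shared with other genes.

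The sequence just upstream of each gene is shown because all 3 genes rose together, and because the CRE is the best known element of the family. The bases come from the RefSeq promoter windows of build GRCm38.p6, 250 bases before each start, and are printed 5′ to 3′ on the gene's own strand. Capitals mark the pentamer TGACG, the core of the CRE, which reads CGTCA where it lies on the opposite strand. The stretches are chr15:101266596-101266845 for *Nr4a1*, chr2:57124004-57124253 for *Nr4a2* and chr4:48045055-48045152 for *Nr4a3*, the last shortened to 98 bases because its RefSeq start lies within the exon that begins the gene in the count annotation.
Nr4a1: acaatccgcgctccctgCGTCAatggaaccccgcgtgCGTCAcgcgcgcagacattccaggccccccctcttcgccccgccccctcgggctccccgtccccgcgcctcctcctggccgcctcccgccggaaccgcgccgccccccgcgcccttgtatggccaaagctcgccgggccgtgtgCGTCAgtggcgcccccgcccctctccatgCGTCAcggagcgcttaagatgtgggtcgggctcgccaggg
Nr4a2: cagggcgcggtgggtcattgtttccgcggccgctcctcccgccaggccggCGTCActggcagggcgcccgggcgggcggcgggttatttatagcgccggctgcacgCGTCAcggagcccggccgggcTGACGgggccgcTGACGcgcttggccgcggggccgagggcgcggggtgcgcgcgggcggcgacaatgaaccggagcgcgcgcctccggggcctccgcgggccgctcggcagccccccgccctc
Nr4a3: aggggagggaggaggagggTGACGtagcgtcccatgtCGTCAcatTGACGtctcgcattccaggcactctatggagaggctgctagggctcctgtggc

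On both strands together, TGACG occurred 4 times in the 250 bases of each member, 3 of them within the printed stretch of *Nr4a3*. At least 1 match was present in 17.8% of the 32851 windows of the same length before mouse genes, and 4 or more in 0.137% of them, or 45 windows. The full palindrome TGACGTCA, present in 1.55% of windows, had 0 matches in the 3 members. The NBRE AAAGGTCA, present in 1.34% of windows, had 0 matches, as had the AP-1 element TGACTCA at 4.46% and the CArG box, bound by serum response factor, at 1.47%. Only exact matches to these letters were counted, so variants of the elements were missed, and MEF2 sites were not searched. The windows were not matched for base composition. These matches describe letters in a window of fixed length and are not measured binding sites.

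Library totals ranged from 22671457 to 37431801 counts with a median of 32189360, at which 1 read per 1000000 corresponds to 32.2 reads. Levels are given as CPM, which are reads per 1000000 of the library total after scaling by the TMM factor of the library, and these factors ranged from 0.631 to 1.16. *Dnmt3a* ranged from 93.3 to 130 CPM in WT libraries and from 34.5 to 53.8 CPM in mD3AKO libraries, without overlap, so the genotype of each label was borne out by the targeted gene. For the *soleus* label, the summed level of 6 slow fiber genes was 20959 to 41086 CPM over the 25 libraries. *Myh7*, the slow myosin heavy chain, was at 11871 ± 3572 CPM (SD, n = 12) at rest. The summed level of 6 fast fiber genes was 12251 to 27569 CPM, a range that overlapped, so these sums alone do not settle which muscle was taken. In the library of mouse 15, a rested mD3AKO male, ribosomal RNA genes took 39.5% of counts, and in all other libraries they took 7.76% to 13.0%. Without that mouse the exercise log2 fold changes below were 1.97 for *Nr4a1*, 3.47 for *Nr4a2* and 3.12 for *Nr4a3*.

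Exercise raised all 3 NR4A genes in both genotypes. Averaged over genotypes, *Nr4a2* rose 11.3-fold (95% confidence interval 7.09 to 18.1), *Nr4a3* rose 8.77-fold (6.13 to 12.6) and *Nr4a1* rose 3.78-fold (2.73 to 5.25). All 3 were called higher at an adjusted p under 0.05 in the quasi-likelihood test of edgeR, adjusted by the Benjamini-Hochberg method over all tested genes, where 5.70% of tested genes were called higher. For each member, every exercised mouse lay above every rested mouse, which held for 0.765% of tested genes. Among the 932 genes called higher, ranked by log2 fold change, *Nr4a2* stood at 7, *Nr4a3* at 11 and *Nr4a1* at 40.

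*Nr4a1*, a regulator of genes of glucose use in muscle, had the highest CPM of the family. In the 5 rested WT mice its level was 24.5 CPM in mouse 1, 19.9 in mouse 20, 52.5 in mouse 11, 62.6 in mouse 13 and 27.8 in mouse 14, the first pair being females and the other 3 males. In the 7 exercised WT mice it was 66.5 CPM at the lowest, 112 at the median and 152 at the highest. The highest rested WT mouse thus came close to the lowest exercised one, although the groups did not overlap, as for 2.06% of tested genes. In mD3AKO mice *Nr4a1* was 12.8 CPM at the lowest, 25.2 at the median and 38.3 at the highest at rest, and 67.0, 110 and 194 CPM after exercise. The states did not overlap in mD3AKO mice either, as for 1.55% of tested genes. The log2 fold change of the main effect of exercise was 1.92 (SE 0.229, edgeR adjusted p = 1.07e-06).

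*Nr4a2*, best known as a factor of dopaminergic neurons, had the lowest CPM at rest. Its level in rested WT mice was 0.89 CPM in mouse 1, 1.28 in mouse 20, 2.04 in mouse 11, 1.21 in mouse 13 and 0.74 in mouse 14. After exercise WT mice ranged from 4.78 CPM over a median of 10.6 to 25.6 CPM. Rested libraries held 9 to 81 reads of *Nr4a2*, with a median of 36.5, so that counting error weighs more on its rested values than on those of the other members. In mD3AKO mice *Nr4a2* went from 0.629 CPM at the lowest, 0.920 at the median and 2.14 at the highest at rest to 4.55, 11.8 and 29.4 CPM after exercise. The spread among exercised mice was wide, with the highest mD3AKO mouse at 6.46 times the lowest and the highest WT mouse at 5.36 times the lowest. The log2 fold change of the main effect was 3.50 (SE 0.329, edgeR adjusted p = 1.86e-08).

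*Nr4a3* is linked in muscle to oxidative metabolism and endurance. In rested WT mice its level was 3.99 CPM in mouse 1, 1.04 in mouse 20, 6.10 in mouse 11, 4.98 in mouse 13 and 1.17 in mouse 14, so that 3 mice lay near 4 to 6 CPM and the other pair near 1 CPM. Exercised WT mice ranged from 15.1 CPM over a median of 22.1 to 38.6 CPM. In mD3AKO mice *Nr4a3* was 1.61 CPM at the lowest, 2.01 at the median and 3.40 at the highest at rest, and 13.9, 20.2 and 36.3 CPM after exercise. Rested WT mice were the most variable group of this gene, with an SD of 1.21 on the log2 scale against 0.38 in rested mD3AKO mice. The log2 fold change of the main effect was 3.13 (SE 0.251, edgeR adjusted p = 1.19e-09).

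**Figure D1:**
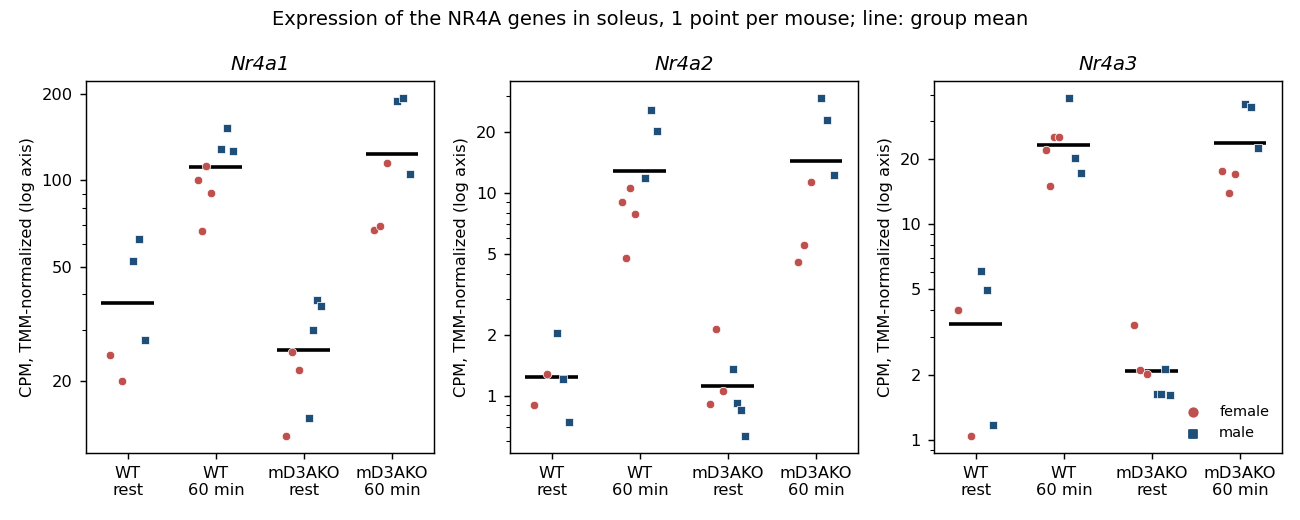
Level of each NR4A gene in every mouse, in TMM-normalized CPM on a log axis, by genotype and state, with females as circles, males as squares and the arithmetic mean of each group as a line. For each gene, every mouse killed 60 minutes after exercise lies above every rested mouse, and for *Nr4a2* every exercised male lies above every exercised female.

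The order of the group means was the same for the 3 genes, with rested mD3AKO lowest, then rested WT, exercised WT and exercised mD3AKO mice, although by medians exercised WT mice were above exercised mD3AKO mice for *Nr4a1* and *Nr4a3*. For *Nr4a1* these means were 25.6 ± 10.0, 37.5 ± 18.9, 111 ± 28.3 and 123 ± 56.2 CPM (SD, n = 7, 5, 7 and 6). For *Nr4a2* they were 1.12 ± 0.498, 1.23 ± 0.505, 12.9 ± 7.41 and 14.3 ± 9.89 CPM. For *Nr4a3* they were 2.08 ± 0.628, 3.46 ± 2.27, 23.4 ± 7.71 and 23.8 ± 9.59 CPM. Neighbours in this order that differed in genotype alone did not differ beyond their spread, as tested below, and neighbours that differed in state did. In bulk tissue, a change in the number of expressing cells and a change in RNA per cell cannot be told apart.

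Loss of DNMT3A had no detected effect on any of the 3 genes. At rest the log2 difference of mD3AKO from WT mice was -0.55 for *Nr4a1* (95% interval -1.21 to 0.10), -0.09 for *Nr4a2* (-1.13 to 0.96) and -0.72 for *Nr4a3* (-1.47 to 0.04). After exercise it was 0.15 for *Nr4a1* (-0.46 to 0.77), 0.16 for *Nr4a2* (-0.62 to 0.93) and 0.02 for *Nr4a3* (-0.59 to 0.63). The adjusted p of edgeR was 1.00 for each of these 6 differences, and 0.0918% of tested genes were called for genotype at rest and 0.110% after exercise. These intervals still hold rested levels in mD3AKO mice of 0.433 times those of WT mice for *Nr4a1* and 0.360 times for *Nr4a3*, so that differences of that size are not excluded. In these groups the share of males differed. In females and males fitted alone the rested difference was -0.16 and -0.68 for *Nr4a1*, 0.32 and -0.43 for *Nr4a2* and -0.0074 and -1.22 for *Nr4a3*, none called. Within females alone the sign of the difference after exercise was negative for all 3 genes.

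The response to exercise was called within each genotype, except for *Nr4a1* in WT mice when only the males of both genotypes were fitted (log2 fold change 1.50, edgeR adjusted p = 0.053). In WT mice the log2 fold change was 1.57 for *Nr4a1* (SE 0.332, edgeR adjusted p = 0.0047), 3.38 for *Nr4a2* (SE 0.485) and 2.76 for *Nr4a3* (SE 0.362), with adjusted p of 4.9e-05 and 1.5e-05 for the last pair and 2.16% of tested genes called higher. In mD3AKO mice it was 2.27 for *Nr4a1* (SE 0.310), 3.62 for *Nr4a2* (SE 0.437) and 3.50 for *Nr4a3* (SE 0.341), with edgeR adjusted p of 1.8e-05 or lower and 3.70% of tested genes called higher. The difference between these responses, mD3AKO minus WT, was 0.71 for *Nr4a1* (SE 0.436, 95% interval -0.19 to 1.60), 0.24 for *Nr4a2* (SE 0.631, -1.06 to 1.54) and 0.74 for *Nr4a3* (SE 0.473, -0.24 to 1.71). None was called, with edgeR adjusted p of 1.00 for each. In females and males fitted alone it was 0.026 and 0.94 for *Nr4a1*, -0.50 and 0.59 for *Nr4a2* and -0.43 and 1.52 for *Nr4a3*, none called, and whether the sexes differ in it was not tested. Over all genes 0 were called for the interaction in edgeR and 0 in DESeq2, and 403 had an unadjusted edgeR p under 0.05. The intervals allow a response in mD3AKO mice of up to 3.04 times that in WT mice for *Nr4a1* and 3.27 times for *Nr4a3*.

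Males and females differed in the level of *Nr4a1* and, after exercise, of *Nr4a2*. Males carried the mouse numbers 7 to 19, and females 1 to 6 and 20 to 25. All differences between the sexes given here therefore cannot be told apart from differences between blocks of mouse numbers, whose meaning the labels do not give. Sex was examined in a fit with 8 groups of sex, genotype and exercise, in which 17389 genes were tested. *Nr4a1* in rested females ranged from 12.8 to 25.2 CPM with a median of 21.8 (n = 5), and in rested males from 14.8 to 62.6 CPM with a median of 36.6 (n = 7). After exercise it ranged from 66.5 to 115 CPM with a median of 90.1 in females (n = 7), and from 105 to 194 CPM with a median of 141 in males (n = 6). Males were thus higher in each state, with some overlap. The mean log2 difference of males from females over genotypes and states was 0.81 (SE 0.168, edgeR adjusted p = 0.0042), where 5.36% of tested genes were called higher in males. It was 0.86 at rest (SE 0.250, edgeR adjusted p = 0.078) and 0.77 after exercise (SE 0.224, edgeR adjusted p = 0.094), and neither passed on its own, although the latter did without the filter on low counts (adjusted p = 0.015), with 1.22% of tested genes called higher in males at rest.

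For *Nr4a2*, rested females and males lay at 0.894 to 2.14 CPM and 0.629 to 2.04 CPM, largely overlapping. After exercise females reached 4.55 to 11.3 CPM with a median of 7.83, and males 11.9 to 29.4 CPM with a median of 21.6. Every exercised male thus lay above every exercised female, which held for 0.881% of tested genes. The log2 difference of males from females was -0.08 at rest (SE 0.364, edgeR adjusted p = 0.95) and 1.44 after exercise (SE 0.262, edgeR adjusted p = 0.0039), where 1.20% of tested genes were called higher in males after exercise. The response of *Nr4a2* was 17.8-fold in males (95% interval 11.4 to 27.8) and 6.21-fold in females (3.82 to 10.1). The difference between these responses was 1.52 on the log2 scale (SE 0.448, 95% interval 0.59 to 2.45) with an unadjusted p of 0.0027 and an edgeR adjusted p of 0.94, so that it did not pass the correction over 17389 genes, of which 0.0460% were called.

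*Nr4a3* was 13.9 to 25.4 CPM in exercised females and 17.2 to 38.6 CPM in exercised males, with a log2 difference of 0.58 (SE 0.268, edgeR adjusted p = 0.34). Its response was 10.5-fold in males and 7.58-fold in females, and the difference of the responses was 0.47 (SE 0.439, edgeR adjusted p = 1.00). That of *Nr4a1* was 3.94-fold in males and 4.20-fold in females, a difference of -0.09 (SE 0.332, edgeR adjusted p = 1.00). The estimate of the response was thus larger in males for *Nr4a2* and *Nr4a3* and smaller for *Nr4a1*, none of these differences passed, and no test compared the 3 sex differences with each other.

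**Figure D2:**
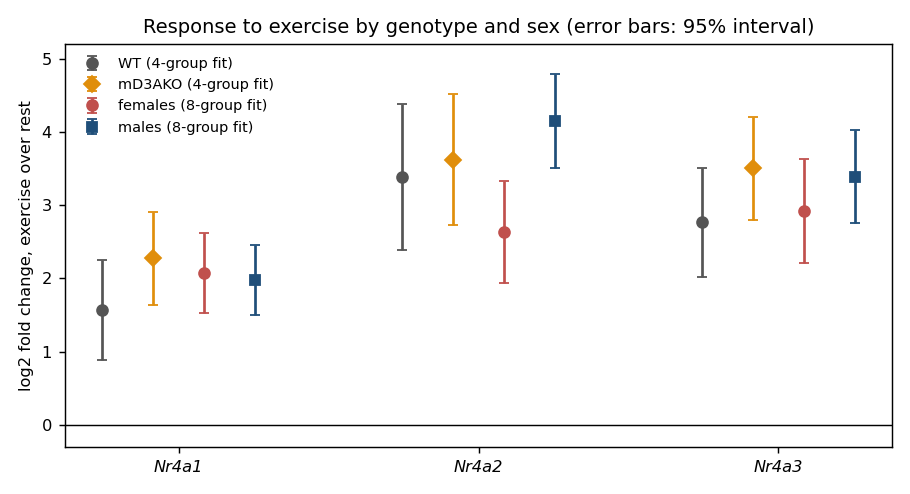
Log2 fold change of exercise over rest for each NR4A gene in WT mice, mD3AKO mice, females and males, with 95% intervals. The genotypes come from the 4-group fit and the sexes from the 8-group fit. The intervals of WT and mD3AKO mice overlap for every gene, and those of females (2.63) and males (4.15) for *Nr4a2* do not.

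The members did not rise in proportion. Within each library, the log2 ratio of *Nr4a2* to *Nr4a1* counts rose from -4.64 ± 0.822 at rest (SD, n = 12) to -3.27 ± 0.432 after exercise (SD, n = 13), a change of 1.36 (SE 0.266, permutation test, two-sided p = 2e-05, the smallest it can give, adjusted p = 6e-05 over 3 pairs). In 8 of 13 exercised mice this ratio was above that of every rested mouse. The log2 ratio of *Nr4a3* to *Nr4a1* rose from -3.59 ± 0.800 to -2.30 ± 0.374, a change of 1.29 (SE 0.253, permutation test, adjusted p = 0.00027). The groups overlapped here, with 2 of 13 exercised mice above every rested one. This count depended on 1 library, since without rested mD3AKO mouse 2 it was 10 of 13. The ratio of *Nr4a3* to *Nr4a2* was 1.05 ± 0.801 at rest and 0.98 ± 0.747 after exercise, a difference of -0.07 (SE 0.310, permutation test, adjusted p = 0.82).

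Within genotypes, both ratios to *Nr4a1* rose. The change in *Nr4a2* to *Nr4a1* was 1.59 in WT mice (exact permutation test, adjusted p = 0.0076) and 1.20 in mD3AKO mice (exact permutation test, adjusted p = 0.019). That in *Nr4a3* to *Nr4a1* was 1.37 in WT mice (exact permutation test, adjusted p = 0.015) and 1.21 in mD3AKO mice (exact permutation test, adjusted p = 0.019). In males the changes were 2.12 and 1.47, each with p = 0.0012, the smallest the exact permutation test allows for 6 against 7 mice, and an adjusted p of 0.0018. In females they were 0.50 and 0.97, both with an exact permutation p of 0.035 and an adjusted p of 0.053, and did not pass. The difference between the sexes in these changes was not tested.

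**Figure D3:**
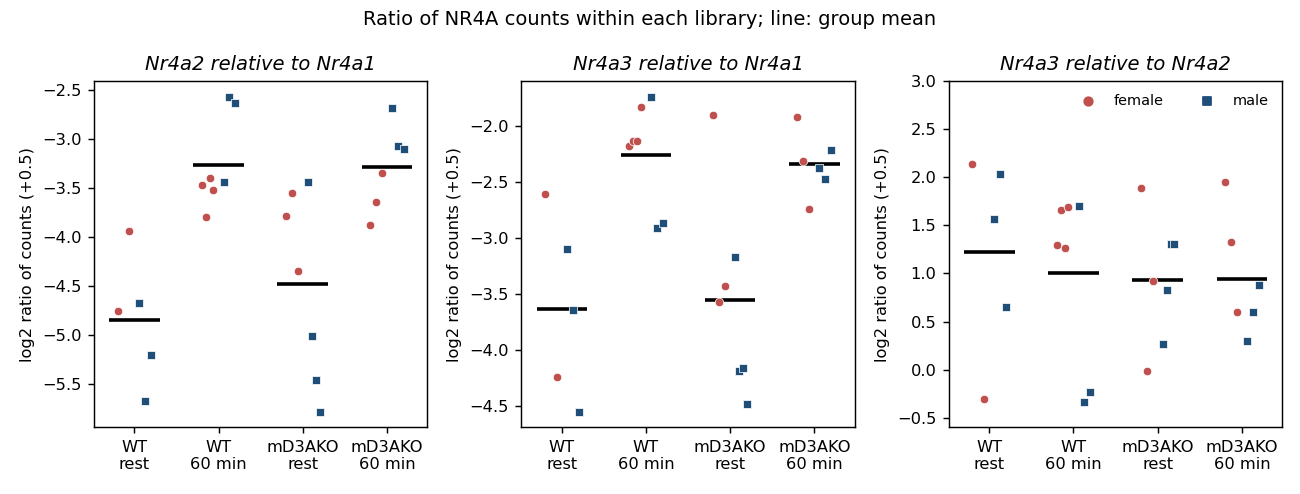
Log2 ratio of the counts of pairs of NR4A genes within each library, with 0.5 added to each count, by genotype and state, females as circles, males as squares and group means as lines. The ratios of *Nr4a2* and *Nr4a3* to *Nr4a1* have higher group means after exercise in both genotypes, and the ratio of *Nr4a3* to *Nr4a2* overlaps throughout.

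Per length, *Nr4a1* remained the bulk of the family. As CPM per kb of exon, *Nr4a1* was 12.4 ± 6.01 at rest (SD, n = 12) and 47.2 ± 16.9 after exercise (SD, n = 13), *Nr4a3* was 0.443 ± 0.270 and 3.94 ± 1.38, and *Nr4a2* was 0.288 ± 0.119 and 3.34 ± 2.04. The share of *Nr4a1* in the summed level per kb was 94.4% ± 1.96 in rested WT mice (SD, n = 5) and 86.5% ± 1.05 in exercised WT mice (SD, n = 7). It was 93.3% ± 3.75 in rested mD3AKO mice (SD, n = 7) and 87.2% ± 1.45 in exercised mD3AKO mice (SD, n = 6). The summed level itself went from 16.0 ± 8.00 to 51.9 ± 13.5 CPM per kb in WT and from 11.0 ± 3.95 to 57.4 ± 26.6 CPM per kb in mD3AKO mice. Among the 36 tested nuclear receptors ordered by mean CPM per kb, *Nr4a1* stood at 7 at rest and at 2 after exercise, next to *Esrra*, the estrogen-related receptor of mitochondrial genes, at 50.9 CPM per kb. *Nr4a3* moved from 30 to 19 and *Nr4a2* from 31 to 21. These lengths are unions of the exons of all isoforms, so that a gene with long unused exons is given a low value.

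Mouse by mouse, *Nr4a1* and *Nr4a2* went together after exercise. Over the 13 exercised mice the Pearson r of their log2 CPM was 0.96 and Spearman's rho 0.93, with a permutation p of 1e-05, the smallest it can give, for r and 2e-05 for rho, and adjusted p of 6e-05 and 0.00012 over 6 relations. Without the 2 mice farthest from the median of *Nr4a1*, r was 0.95. The sexes occupy adjoining ranges in this relation, so it was also computed within them. In the 7 females r was 0.99 and rho 0.96 (exact permutation test, p = 0.00040 and 0.0028, adjusted p = 0.0012 and 0.0083), and in the 6 males r was 0.80 and rho 0.66 (exact permutation test, p = 0.067 and 0.17, adjusted p = 0.13 and 0.35). On deviations from the means of genotype and sex, r was 0.91 and rho 0.90 (permutation test, adjusted p = 0.00012 and 0.00072).

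The other pairs were less close. *Nr4a1* and *Nr4a3* had an r of 0.72 and a rho of 0.60 in exercised mice (permutation test, p = 0.0056 and 0.032, adjusted p = 0.017 and 0.095), and r was 0.52 without the 2 mice farthest from the median of *Nr4a1*. Within sexes it was 0.64 in females and 0.52 in males (exact permutation test, adjusted p = 0.16 and 0.38), and on deviations from the means of genotype and sex it was 0.51 (permutation test, adjusted p = 0.22). *Nr4a2* and *Nr4a3* had an r of 0.56 and a rho of 0.51 (permutation test, p = 0.047 and 0.080, adjusted p = 0.094 and 0.16), with 0.42 without the 2 farthest mice. Its r was 0.60 in females and -0.04 in males (exact permutation test, adjusted p = 0.155 and 0.918), and 0.18 on deviations from the means of genotype and sex (permutation test, adjusted p = 0.66). In the 12 rested mice r was 0.08 for *Nr4a1* and *Nr4a2*, 0.43 for *Nr4a1* and *Nr4a3* and 0.34 for *Nr4a2* and *Nr4a3*, with rho of -0.12, 0.38 and 0.24 (permutation test, p = 0.80, 0.17 and 0.28 for r and 0.72, 0.23 and 0.46 for rho, adjusted p = 0.80, 0.25 and 0.34 for r). None of the rested relations passed. Mean read counts of each member were lower at rest than after exercise, and the part of counting error in these relations was not tested.

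**Figure D4:**
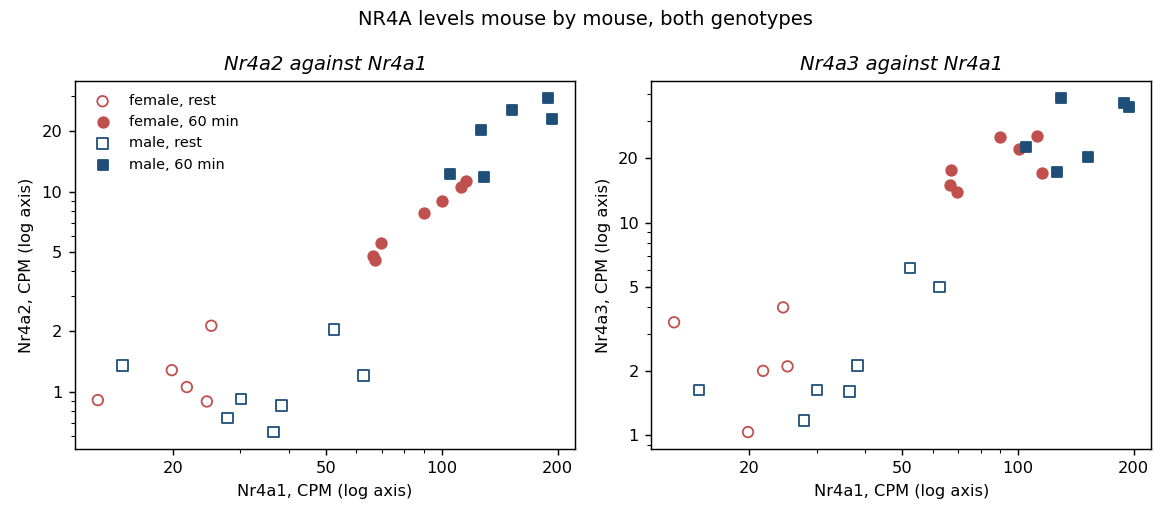
Level of *Nr4a2* and of *Nr4a3* against that of *Nr4a1* in each mouse, in CPM on log axes, with open symbols at rest and filled symbols 60 minutes after exercise, circles for females and squares for males. In exercised mice *Nr4a2* follows *Nr4a1* (r of 0.96 over 13 mice), with males at the upper end, and *Nr4a3* follows it less closely (r of 0.72).

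By Pearson r of log2 CPM over all 25 libraries, which largely reflects the shared change from rest to exercise, the 5 genes most like *Nr4a1* were *Csrnp1* (r of 0.94), *Sgk1*, *Alpl*, *Klf4* and *Ccn2* (r of 0.92). Those most like *Nr4a2* were *Otud1* (r of 0.97), *Csrnp1*, *Tmem251*, *Irs2* and *Fosl2* (r of 0.94), and those most like *Nr4a3* were *Sik1* (r of 0.97), *Lrrc8a*, *S1pr1*, *Irs2* and *Csrnp1* (r of 0.96). Thus *Csrnp1*, a nuclear protein gene induced by AXIN1, was among the closest 5 of each member, and *Irs2*, the insulin receptor substrate, among those of *Nr4a2* and *Nr4a3*. Within the 13 exercised libraries, where the change from rest plays no part, *Nr4a2* was the gene ranked 2 in likeness to *Nr4a1*, after *Otud1* (r of 0.96), a deubiquitinase gene, and ahead of *Btg2*, *Abra* and *Mia3*. *Nr4a1* in turn ranked 1 for *Nr4a2*, before *Fosl2*, *Btg2*, *Otud1* and *Gnb5*. *Nr4a3* ranked 198 for *Nr4a1* and 928 for *Nr4a2* of the tested genes, and its own closest genes were *Slc38a2* (r of 0.90), *Por*, *Fancc*, *Dstyk* and *Irs2* (r of 0.85). These ranks were not adjusted for sex, although every exercised male lay above every exercised female for *Nr4a2*.

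Other nuclear receptors had smaller fold changes than the NR4A genes. Of 46 further receptor genes, 33 passed the filter, and 1 was called higher and 5 lower after exercise, against 10.4% of tested genes called in either direction, while 27 were not called. Their median log2 fold change was -0.01, with -0.001 over all tested genes. The 1 receptor that rose was *Ppara*, the fatty acid sensor of oxidative tissues, from 33.6 ± 4.89 to 71.1 ± 11.1 CPM (SD over 12 and 13 mice), a log2 fold change of 1.09 (SE 0.089, edgeR adjusted p = 1.6e-09). Its change was thus below that of each NR4A gene. Those that fell were *Nr5a2* (log2 fold change -1.29), a receptor at under 1 CPM here, *Nr1d1* (-0.65), the clock repressor REV-ERBα, the retinoic acid receptors *Rarg* (-0.35) and *Rara* (-0.28), and *Thra* (-0.15), a thyroid hormone receptor. None of the 33 was called for the main effect of genotype, for which 0.269% of tested genes were called, or for the interaction.

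**Figure D5:**
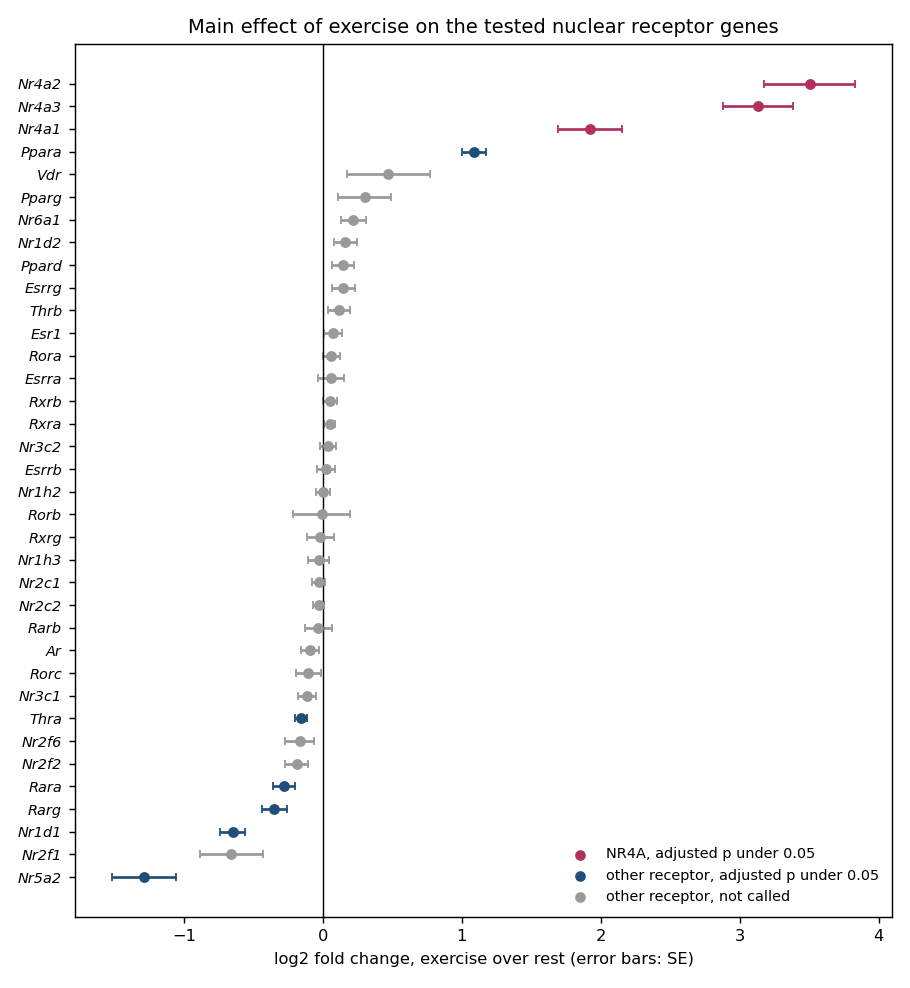
Log2 fold change of the main effect of exercise, with its SE, for the 36 tested nuclear receptor genes, ordered by size. The 3 NR4A genes lie highest, followed by *Ppara* at 1.09, and the receptors that were called lower reach from -0.15 to -1.29.

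Genes that act upstream of the family were called about as often as genes in general. Of 33 genes of the beta-adrenergic, protein kinase A, CREB, salt-inducible kinase, CaMKII, calcineurin, MEF2, SRF and class IIa deacetylase systems, 32 were tested, of which 3 were called higher, 1 lower and 28 neither, or 12.5% called in either direction against 10.4% of all tested genes, and the median log2 fold change was 0.0055. *Sik1*, a kinase gene that is itself a CREB target and restrains the CREB coactivators, rose from 24.2 ± 6.32 to 108 ± 14.9 CPM, a log2 fold change of 2.15 (SE 0.120, edgeR adjusted p = 1.0e-12). *Rcan1*, a calcineurin inhibitor and target, rose by 0.74 (SE 0.185, edgeR adjusted p = 0.0081). *Crem*, which encodes cAMP-responsive activators and repressors, rose by 0.39 (SE 0.073, edgeR adjusted p = 0.00047). *Hdac7*, a class IIa deacetylase, fell by 0.21 (SE 0.066, edgeR adjusted p = 0.039). The transcription factor *Creb1*, at a log2 fold change of 0.08 (SE 0.049), and *Mef2c*, at 0.001 (SE 0.067), were not called.

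Genes described as NR4A targets in muscle were called in small numbers, to be read against the 10.4% of all tested genes called in either direction. Of 10 targets of glucose and glycogen metabolism, 0 were called, at a median log2 fold change of 0.03, with *Slc2a4*, the insulin-responsive glucose transporter GLUT4, at 499 ± 48.9 CPM at rest and 515 ± 45.4 CPM after exercise (SD, n = 12 and 13). Of 12 genes of oxidative and lipid metabolism, 2 were called higher and 1 lower, or 25.0%, at a median of 0.06. *Ppargc1a*, the coactivator PGC-1α, rose from 37.7 ± 6.82 to 79.7 ± 19.6 CPM, a log2 fold change of 1.10 (SE 0.115, edgeR adjusted p = 1.4e-07), and *Lpin1*, a phosphatidate phosphatase gene, by 0.74 (SE 0.087, edgeR adjusted p = 9.0e-07). *Ppargc1b* fell by 0.21 (SE 0.067, edgeR adjusted p = 0.049). *Pdk4*, the pyruvate dehydrogenase kinase, was at a log2 fold change of 0.10 (SE 0.276) and spread widely at rest, at 1141 ± 714 CPM (SD, n = 12). Of 14 coregulators of nuclear receptors 1 was called, *Ncoa3*, a steroid receptor coactivator, which rose by 0.28 (SE 0.059, edgeR adjusted p = 0.0014), and no gene of these 4 lists was called for genotype or for the interaction.

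The 2 nearest tested genes on each side of each member, 12 in all, lay 9.51 to 3888 kb away. Of these, 0 were called after exercise, where 10.4% of all tested genes were called, and nothing is read from so few genes. *Atg101*, an autophagy gene 9.51 kb beyond *Nr4a1*, was at 15.0 CPM at rest and 14.6 CPM after exercise, a log2 fold change of -0.03 (SE 0.056). *Stx17*, 38.5 kb beyond *Nr4a3*, was at -0.07 (SE 0.041) and *Gpd2*, 114 kb beyond *Nr4a2*, at 0.13 (SE 0.092).

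Cell type markers were examined because NR4A genes are also expressed by endothelial and myeloid cells. Of 5 endothelial markers 4 were called lower after exercise, from *Cdh5* (log2 fold change -0.23) to *Kdr* (-0.58), and *Pecam1* was at -0.09, where 10.4% of all tested genes were called in either direction. The summed level of the 5 was 335 to 443 CPM in rested and 277 to 362 CPM in exercised WT mice, and 323 to 418 and 292 to 351 CPM in mD3AKO mice. Of 3 satellite cell markers *Pax7* (-0.45) and *Myf5* (-0.46) were called lower and *Calcr* was at 0.08 (SE 0.173), with *Pax7* also called higher in mD3AKO mice, by 0.48 (edgeR adjusted p = 0.038), and the summed level of the 3 lay between 5.07 and 11.1 CPM in every library. Of 5 general immune markers 0 were called, with sums of 40.0 to 58.3 and 25.3 to 61.1 CPM in WT and 29.7 to 93.4 and 18.2 to 92.0 CPM in mD3AKO mice at rest and after exercise. Of 5 markers of monocytes and neutrophils 1 was called lower, *S100a9*, which was under 1 CPM on average, as were *Ly6c2*, *S100a8* and *Csf3r*, and the sum of the 5 was 1.74 to 26.3 CPM over all libraries. None of the markers of slow or fast fibers, fibroblasts, smooth muscle, Schwann cells, adipocytes or blood was called. No marker gene was called higher after exercise, and the part of cell composition in the rise of the NR4A genes was not tested.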

How the data were processed

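RNA of the *soleus* of 25 mice was measured by RNA-seq. Per the labels and the study's methods, ribosomal RNA was depleted, stranded libraries were read from both ends, and reads were assigned to mm10 genes of GENCODE release M15. The submitters' processing notes name FastQC 0.11.5, STAR 2.5.3a and featureCounts 1.5.3, and the strand setting of counting is not given in the sources used here. The authors deposited raw counts per gene and library, without normalization or filtering. No column belonged to other samples. Symbols came from GENCODE M21 and matched 52403 of 52636 genes.

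Library totals were 22671457 to 37431801, and the 67 replicate pairs all differed by more than sampling noise. Each library is 1 mouse. Groups, sex and mouse numbers were taken from the labels. Counts were tested with edgeR (version 4.0.16, with limma 3.58.1 and R 4.3.3, filterByExpr over 4 groups, minimum count 10 and total 15, TMM, glmQLFit and glmQLFTest), with 1 mean per group and Benjamini-Hochberg adjustment over all tested genes. The SE was taken as the size of the log2 fold change over the root of F, and intervals are 95%. Sex was tested with 8 groups, and the male minus female level was added after the data were seen, as were the correlations within each sex and the ratios and correlations without single mice. Ratios between members (0.5 added to counts) and correlations were tested by 2-sided permutation of mice, with 100000 resamples or exactly for fewer than 10 mice per group, in Python with scipy.

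Named genes were the members, the list genes called for exercise (at most 8 per list), genotype or interaction, the 5 genes most like each member, and its nearest tested neighbour. *Dnmt3a*, and the genes that were not called but are given as reference (*Myh7*, *Esrra*, *Creb1*, *Mef2c*, *Slc2a4*, *Pdk4*, *Pecam1*, *Ly6c2*, *S100a8*, *Csf3r*, *Calcr*), complete them, the latter chosen after their values were seen. The members and lists were chosen with earlier results of these data known, and the target and regulator lists come from general knowledge. 1 regulator gene is not reported here. Alternatives were DESeq2 1.42.0, other size factors and filters, sex or blocks of mouse numbers as a term, each sex alone, counts without ribosomal RNA, and leaving out each mouse. The blocks were mice 1 to 6, 7 to 19 and 20 to 25. Since mice 7 to 19 were all the males, the block term contains sex and only splits the females further. Other assays of the study were not analysed here.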

Additional observations from a re-analysis of the deposited data

Results flagged for a closer look

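*Nr4a3* in rested mD3AKO mouse 2, a female, was 3.40 CPM, while the 6 other mice of its group lay between 1.61 and 2.13 CPM. The gap to the nearest mouse was 0.708 of the range of the group, above Dixon's 95% critical value of 0.568 for 7 samples. It was the 1 sample that stood apart in 12 such tests, 1 for each gene and group, of which chance gives about 1 in 20. The same mouse had the lowest *Nr4a1* level of the group, at 12.8 CPM, and 0.909 CPM of *Nr4a2*.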

How the results depend on the processing

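The exercise response of each NR4A gene, over genotypes and within each, kept its direction and its call under every alternative and without any 1 mouse, with 1 exception. For *Nr4a1* in WT mice, the fit of the males of both genotypes gave 1.50 and did not pass (edgeR adjusted p = 0.053, fewer samples). Over the alternatives other than leaving out mice the main effect was 1.91 to 2.06 for *Nr4a1*, 2.62 to 4.14 for *Nr4a2* and 2.91 to 3.38 for *Nr4a3*.

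No genotype difference or interaction passed under any alternative, and several signs turned. The rested difference of *Nr4a2* was 0.019 with sex as a term and 0.32 in females. That after exercise was -0.14 in females for *Nr4a1*, and for *Nr4a2* -0.0015 with 8 groups and -0.18 in females. For *Nr4a3* it was -0.040 with library totals, -0.062 with 8 groups and -0.44 in females. With sex as a term it was -0.045, and with blocks of mouse numbers, which contain sex, -0.050. The interaction was -0.50 for *Nr4a2*, -0.43 for *Nr4a3* and 0.026 for *Nr4a1* in females, and 1.52 for *Nr4a3* and 0.94 for *Nr4a1* in males. The rested difference in females and males was -0.0074 and -1.22 for *Nr4a3*, and -0.16 and -0.68 for *Nr4a1*. Leaving out each mouse gave -0.32 to 0.16 for *Nr4a2* at rest, and after exercise -0.022 to 0.28 for *Nr4a1*, -0.19 to 0.42 for *Nr4a2* and -0.14 to 0.19 for *Nr4a3*, with -0.10 to 0.51 for the interaction of *Nr4a2*. Without single mice the rested difference also went from -0.71 to -0.29 for *Nr4a1* and from -0.95 to -0.41 for *Nr4a3*. The interaction went from 0.43 to 0.86 for *Nr4a1* and from 0.44 to 0.97 for *Nr4a3*, and these signs did not turn. The sex difference in the response went from -0.22 to 0.058 for *Nr4a1* and from -0.17 to 0.81 for *Nr4a3*, while that of *Nr4a2* stayed between 1.28 and 1.77. The cause was not tested.

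The ratio changes in females alone were 0.97 for *Nr4a3* to *Nr4a1* and 0.50 for *Nr4a2* to *Nr4a1*, both no longer passing. That of *Nr4a3* to *Nr4a2* turned to 0.018 in mD3AKO mice and 0.47 in females, and went from -0.19 to 0.038 without single mice. The correlation of *Nr4a1* and *Nr4a2* in exercised males was 0.80, not passing. That of *Nr4a1* and *Nr4a3* was 0.51 on deviations, 0.52 in males and 0.64 in females, and 0.65 to 0.78 without single mice, not passing without exercised WT mouse 5 or mD3AKO mouse 6, 10 or 17. That of *Nr4a2* and *Nr4a3* was -0.040 in males and 0.45 to 0.67 without single mice, passing without WT mouse 16 or 18. At rest, without single mice, *Nr4a1* and *Nr4a2* gave -0.19 to 0.19, *Nr4a1* and *Nr4a3* 0.25 to 0.65 (0.75 in males), and *Nr4a2* and *Nr4a3* 0.071 to 0.45 (0.76 in males), none passing.

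The count of other receptors called was 3 with library totals, 3 in males and 3 in females, against 6. The count of all genes called for exercise was 1699, with 927 under library totals, 966 in males and 512 in females, and 0 were called for the interaction in any setting. The higher male level of *Nr4a2* after exercise was called without any 1 mouse (adjusted p 0.0011 to 0.021), and the overall male level of *Nr4a2*, at 0.68 and an adjusted p of 0.066, passed in DESeq2 (adjusted p = 0.045), without the filter (0.023) and without 4 single mice, exercised WT mouse 9, exercised mD3AKO mice 19 and 23 and rested mD3AKO mouse 21 (lowest 0.024). The male level of *Nr4a1* after exercise passed without the filter (adjusted p = 0.015) and without rested mD3AKO mouse 7 or exercised mD3AKO mouse 19 (lowest 0.045). No paired analysis was possible because each mouse number occurs in 1 group only.

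Depth limits *Nr4a2* at rest, with 9 to 81 reads per library. Group sizes of 5 to 7 limit the genotype comparisons.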
